A study of Mus musculus with 18 samples.

Results

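The knock-down of *Atrx* in tumors grown without T, B, and NK cells is described here from 10 of 18 sequenced tumors, all from NSG mice. The members were the 5 tumors labelled as K7M2 cells with an shRNA against *Atrx* (*ATRX* KD, mice 26 to 30) and the 5 with a control shRNA (*ATRX* CT, mice 1 to 5), and the comparison covered the 14654 of 20878 genes that averaged 0.1 FPKM or more (fragments per kilobase of transcript, scaled to library size) over these 10 tumors. The K7M2 line was derived from an osteosarcoma of a Balb/c mouse. Both groups of cells were transduced with lentivirus and 500000 cells were injected per mouse. The hosts were NSG mice (NOD.Cg-Prkdc scid Il2rg tm1Wjl/SzJ), young adult females according to the study's methods, which keep macrophages, neutrophils, and mast cells. The other 8 tumors came from the same 2 kinds of cells in Balb/c mice, which have an intact immune system. The study was set up to test how the loss of *ATRX* acts on tumor growth and on the immune response. Mice were assigned to the groups by whole cages and the labels give no cage, so cage and knock-down cannot be told apart. The labels name no separate clones or further shRNAs, so a difference that arose between the transduced populations cannot be told apart from the knock-down either.

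ATRX is a chromatin remodeler of the SWI/SNF family, encoded on the X chromosome. With its partner DAXX it places the histone variant H3.3 in heterochromatin, at telomeres, and at other repeats, and its loss in sarcomas is known for the alternative lengthening of telomeres. A bulk tumor holds grafted tumor cells together with macrophages, vessels, and stroma of the host, all of mouse origin here, so the transcripts of both are added up in 1 value.

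The tumors correlated with each other at 0.961 to 0.989 across genes, and spike-in RNA took 1.55% to 2.93% of a library. Depth, estimated from the steps between low values, was 15150000 to 24200000 fragments in *ATRX* CT tumors and 20400000 to 25250000 in *ATRX* KD tumors. The *ATRX* CT tumor of mouse 3 and the *ATRX* KD tumor of mouse 27 stood apart in both groups, with low proteasome and oxidative phosphorylation transcripts, and the results that rest on them are given with and without them. *Runx2*, which defines the osteoblast lineage, was found in all 10 tumors (5.44 ± 1.18 FPKM with the control shRNA and 4.87 ± 0.64 FPKM with the knock-down), whereas *Sp7*, the other osteoblast factor looked at, was below the minimum for testing. *Il2rg* and *Prkdc*, the genes mutated in NSG mice, gave 9.51 ± 3.27 FPKM with the control shRNA and 6.94 ± 1.39 FPKM with the knock-down and 9.41 ± 2.34 FPKM with the control shRNA and 8.14 ± 2.6 FPKM with the knock-down, and cannot check the host because the grafted cells carry intact copies. The Y-linked genes *Uty*, *Eif2s3y*, *Kdm5d*, and *Ddx3y* were found in all 10 tumors, against the stated sex of the hosts.

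*Atrx* (chrX:105797615-105929372, minus strand) was measured at 16.2, 11.6, 24.4, 15.1 and 20.5 FPKM among *ATRX* CT and 8.42, 16.4, 8.59, 8.88 and 8.59 FPKM among *ATRX* KD tumors. The tumor labelled *ATRX* KD of mouse 27 lay above 3 of the 5 *ATRX* CT tumors, and the other 4 lay below all of them. The mean was 17.6 ± 4.99 FPKM with the control shRNA and 10.2 ± 3.47 FPKM with the knock-down (log2 fold change -0.74, SE 0.22, adjusted p = 0.061, exact two-sided permutation test p = 0.0317 with a smallest possible p of 0.00794). *Atrx* did not pass the adjusted threshold with all tumors. Without the tumor of mouse 27 the log2 fold change was -0.91 (adjusted p = 0.0268). That tumor had the highest *Atrx* of its group, so leaving it out cannot check the knock-down. With other tumors left out, the adjusted p of *Atrx* in limma reached 0.153.

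Of the 14654 genes, 547 were higher (3.73%) and 447 lower (3.05%) in *ATRX* KD tumors at an adjusted p under 0.05 (limma, Benjamini-Hochberg), which is called passing below. A change of at least 2-fold was found among these for 25 higher (0.171%) and 43 lower genes (0.293%). Fold changes are on the scale of log2 (FPKM + 1), which understates the change of genes of low level, and their median over all genes was -0.0014. Most of the changes were therefore small. Among the higher genes 280 changed by less than 0.5 on the log2 scale, and among the lower genes 134. The higher genes were of high level, with a median of 20.5 FPKM, against 5.09 FPKM for the lower genes and 10.6 FPKM for all genes tested. Non-coding RNAs made up 13.9% of the lower genes (62 of 447) and 1.1% of the higher genes (6 of 547), against 6.37% of all genes tested. The groups did not overlap for 423 of the higher and 305 of the lower genes. Over all genes tested, such separation was found for 639 higher (4.36%) and 460 lower genes (3.14%). The counts depended on single tumors. They were 90 higher and 54 lower without the *ATRX* KD tumor of mouse 30, 139 and 98 without mouse 28, 155 and 113 without mouse 4, 162 and 149 without mouse 29, 176 and 143 without mouse 1, 280 and 257 without mouse 5, 797 and 727 without mouse 26, and 1279 and 801 without mouse 3. Without the tumors of mice 3 and 27 together, 1121 were higher and 733 lower.

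**Figure D1:**
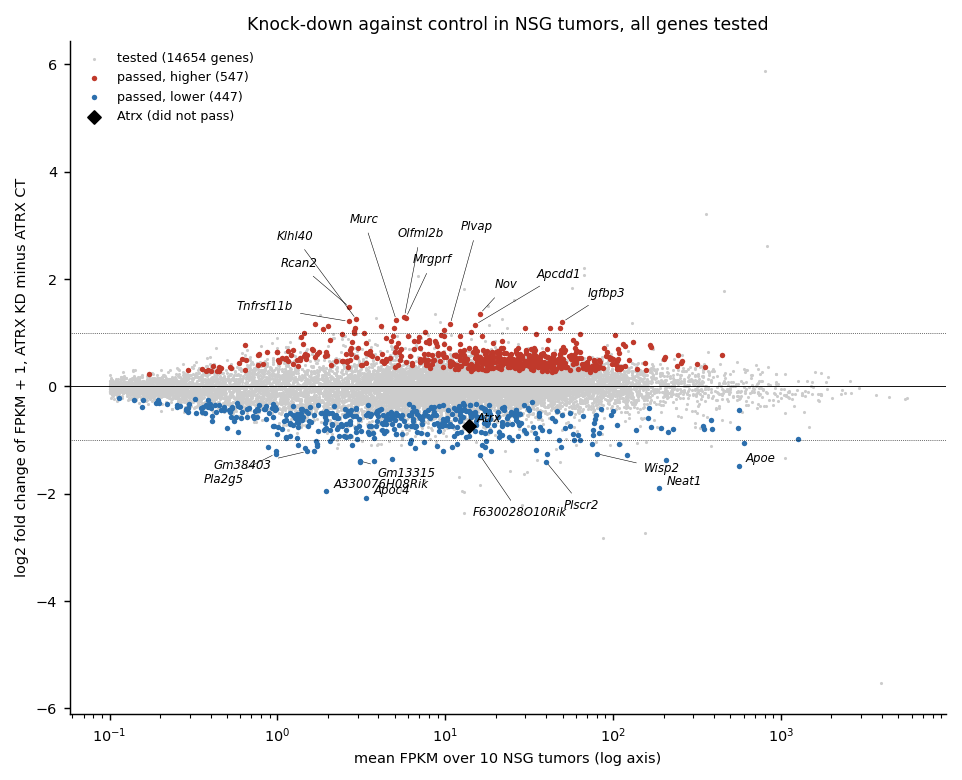
Mean FPKM over the 10 NSG tumors (horizontal, log axis) against the log2 fold change of FPKM + 1, *ATRX* KD minus *ATRX* CT (vertical), for the 14654 genes tested. Colored points are the 547 higher and 447 lower genes that passed, the dotted lines mark a 2-fold change, and the 20 largest separated changes and *Atrx* are named. Most colored points lie inside the dotted lines, and the higher ones lie further to the right.

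Among the genes with the largest decreases, 5 are non-coding. *Neat1* (chr19:5824708-5845480, minus strand), the long non-coding RNA that builds nuclear paraspeckles, was at 343, 167, 228, 338 and 398 FPKM among *ATRX* CT and 89.9, 147, 53, 55.7 and 58.5 FPKM among *ATRX* KD tumors. All *ATRX* KD tumors lay below all *ATRX* CT tumors, and the tumor of mouse 27 was the highest of them (log2 fold change -1.90, SE 0.31, adjusted p = 0.0115). *A330076H08Rik* (chr7:61943901-61982303, minus strand), a long non-coding RNA, was at 5.3, 1.95, 4.38, 3.73 and 3.35 FPKM among *ATRX* CT and 0.239, 0.306, 0.105, 0.222 and 0.0634 FPKM among *ATRX* KD tumors, so that it was close to lost in every *ATRX* KD tumor (log2 fold change -1.96, SE 0.17, adjusted p = 0.00206). Its neighbor on the same strand, *A230057D06Rik* (chr7:61705850-61927574, minus strand), was also lower and separated (log2 fold change -1.20, SE 0.15, adjusted p = 0.00478). *F630028O10Rik* (chrX:96239926-96243642, plus strand), whose exon holds the myeloid microRNA Mir223, fell from 23.2 ± 9.32 to 8.79 ± 2.9 FPKM, and the long non-coding RNA *Gm38403* (-1.21) and the transcribed pseudogene *Gm13315* (-1.39) were lower as well.

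The coding genes with the largest decreases, picked by fold change, differ in function. *Apoe*, the apolipoprotein that macrophages release with cholesterol, was at 804, 695, 1230, 789 and 569 FPKM among *ATRX* CT and 523, 330, 183, 259 and 217 FPKM among *ATRX* KD tumors. The groups were separated, with the tumor of mouse 26 nearest to the controls (log2 fold change -1.48, SE 0.28, adjusted p = 0.0162). *Apoc4*, its neighbor in the apolipoprotein cluster of chromosome 7, was at 3.39, 8.47, 9.43, 5.83 and 3.33 FPKM among *ATRX* CT and 1.61, 0.248, 0.372, 0.754 and 0.208 FPKM among *ATRX* KD tumors (log2 fold change -2.08, SE 0.29, adjusted p = 0.00709). Of its exons, 30.1% are shared with the read-through entry Apoc4-apoc2, so part of its reads could be assigned to either. *Plscr2*, a phospholipid scramblase, was at 36.9, 89.1, 61.2, 52.6 and 52.2 FPKM among *ATRX* CT and 32, 16.7, 19.6, 20.9 and 16.7 FPKM among *ATRX* KD tumors, with the smallest gap between the tumors of mice 1 and 26 (log2 fold change -1.40, SE 0.23, adjusted p = 0.0115). *Wisp2* (also *Ccn5*), a secreted CCN protein, was at 120, 155, 126, 74.4 and 90.5 FPKM among *ATRX* CT and 51.8, 46.1, 39.7, 59.5 and 34.1 FPKM among *ATRX* KD tumors, and no tumor of one group reached the other (log2 fold change -1.25, SE 0.20, adjusted p = 0.0115). *Pla2g5*, a secreted phospholipase A2, was between 0.866 and 2.76 FPKM in controls and at most 0.289 FPKM with the knock-down (log2 fold change -1.26, SE 0.16, adjusted p = 0.00541).

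The genes with the largest increases were of several kinds. *Nov* (also *Ccn3*), another CCN protein, was at 5.8, 11, 9.19, 9.09 and 8.47 FPKM among *ATRX* CT and 19.8, 25.3, 23.9, 23.4 and 25.2 FPKM among *ATRX* KD tumors. It was higher in every *ATRX* KD tumor, with little spread (log2 fold change 1.35, SE 0.14, adjusted p = 0.00247). *Tnfrsf11b* codes for osteoprotegerin, the decoy receptor that blocks osteoclast formation, and was at 1.51, 0.729, 0.625, 2.06 and 1.3 FPKM among *ATRX* CT and 3.78, 3.56, 3.95, 5.06 and 4.05 FPKM among *ATRX* KD tumors. All *ATRX* KD tumors were above all controls (log2 fold change 1.21, SE 0.17, adjusted p = 0.00705). *Igfbp3*, which binds insulin-like growth factors, was at 43.7, 22, 42.2, 17.2 and 29.5 FPKM among *ATRX* CT and 49.9, 72.1, 77.6, 69.4 and 75.6 FPKM among *ATRX* KD tumors, with the tumor of mouse 26 closest to the controls (log2 fold change 1.20, SE 0.24, adjusted p = 0.0193). *Murc* and *Klhl40*, known from muscle cells, rose by 1.23 and 1.25 on the log2 scale, *Rcan2*, an inhibitor of calcineurin, by 1.48, *Olfml2b*, a matrix protein, by 1.3, the orphan receptor gene *Mrgprf* by 1.28, *Plvap*, a protein of endothelial fenestrae, by 1.16, and *Apcdd1*, an inhibitor of Wnt signalling, by 1.15. Of 31 skeletal muscle genes 0 passed, and they varied widely by tumor. The muscle actin *Acta1*, for example, ranged from 1.34 to 129 FPKM in controls and from 0.489 to 170 FPKM in *ATRX* KD tumors.

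**Figure D2:**
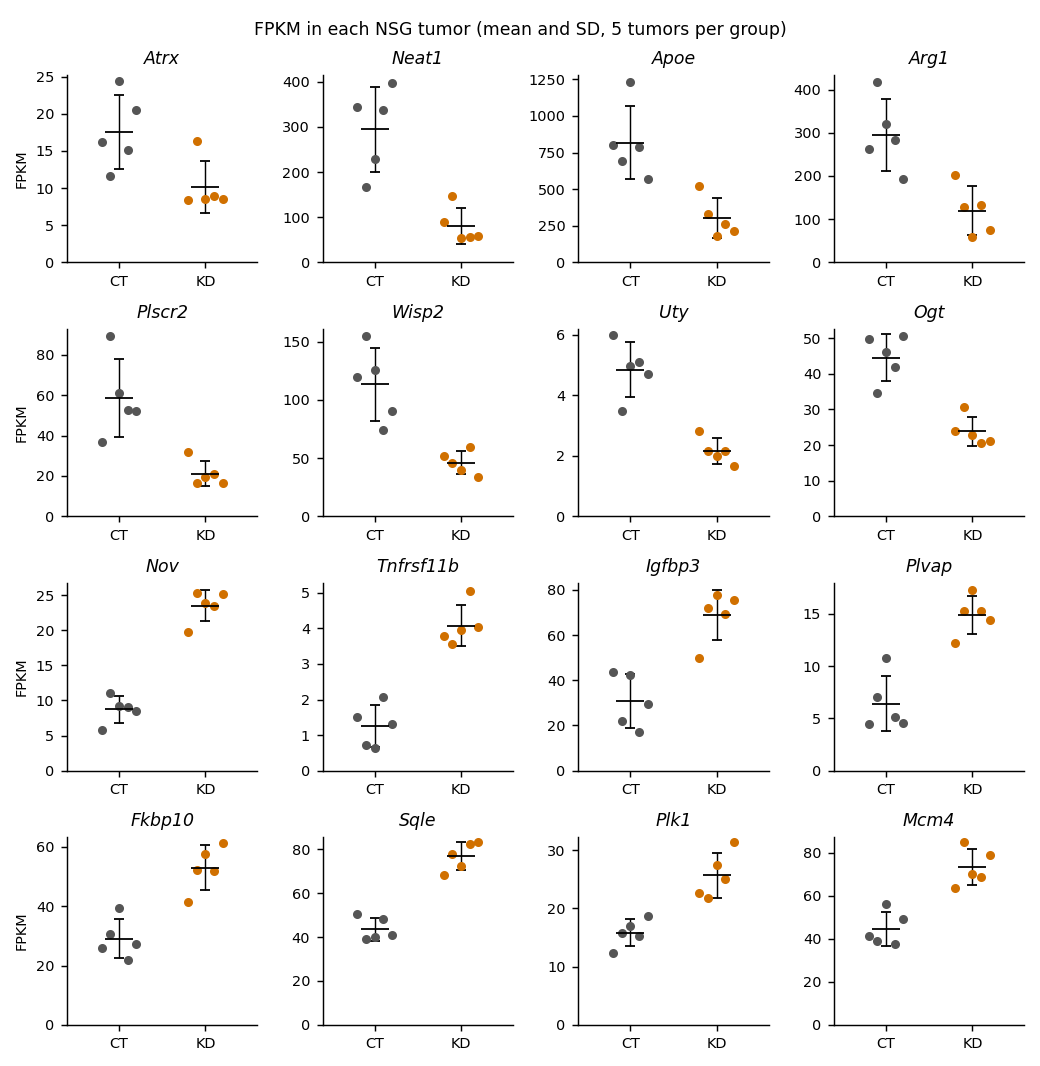
FPKM (vertical) in each of the 5 *ATRX* CT and 5 *ATRX* KD tumors for 16 genes, with the mean (bar) and SD (whiskers). *Atrx* overlaps through 1 *ATRX* KD tumor, *Arg1* overlaps as well, and *Neat1*, *Apoe*, *Nov*, *Tnfrsf11b*, *Sqle*, and *Mcm4* are separated between the groups.

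Functions were then described by 78 gene lists, of which 77 had tested members. For each list the count of members that passed is read against the 3.73% higher and 3.05% lower over all genes, and no test was made of a list as a whole.

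Macrophage genes were lower in *ATRX* KD tumors. Of 36 genes of the macrophage list, 12 fell, 0 rose, and 33 were below 0, with a median log2 fold change of -0.64. The mean log2 (FPKM + 1) of the list was 6.29, 6.58, 6.72, 6.39, and 6.12 in *ATRX* CT tumors and 6.16, 5.75, 5.62, 6.01, and 5.59 in *ATRX* KD tumors, so that only the *ATRX* KD tumor of mouse 26 lay within the range of the controls. *Arg1*, the arginase of alternatively activated macrophages, was at 262, 417, 320, 283 and 192 FPKM among *ATRX* CT and 202, 128, 59.4, 133 and 74.9 FPKM among *ATRX* KD tumors, with the tumors of mouse 5 and mouse 26 overlapping (log2 fold change -1.38, SE 0.31, adjusted p = 0.028). *Trem2*, a lipid-sensing receptor of macrophages, fell from 77.5 ± 14.3 to 38.9 ± 11.5 FPKM (log2 fold change -1.0, SE 0.19, adjusted p = 0.0169), and *Lyz2*, lysozyme, from 1660 ± 255 to 884 ± 360 FPKM (log2 fold change -0.97, SE 0.24, adjusted p = 0.04). *C1qb*, *C1qc*, *Tyrobp*, *Msr1*, *Siglec1*, *Pf4*, *Maf*, *F13a1*, and *Apoe* made up the rest of the 12. The general macrophage markers *Csf1r*, *Adgre1*, and *Cd68*, chosen after their values were seen, did not pass. *Csf1r*, the receptor of the macrophage growth factor, had a log2 fold change of 0.37 (adjusted p = 0.114), *Adgre1* (F4/80) of -0.35 (adjusted p = 0.154), and *Cd68* of -0.47 (adjusted p = 0.0628). In bulk RNA, fewer cells of a type and less RNA per cell cannot be told apart. The count of 12 became 1 without mouse 30, 3 without mouse 1, 4, or 28, 4 without mouse 29, 7 without mouse 2 or 27, and 18 without mouse 26.

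Y-linked transcripts moved with the macrophage genes, and their part in the result was not tested. *Uty* was at 5.99, 3.47, 4.96, 5.1 and 4.72 FPKM among *ATRX* CT and 2.81, 2.15, 1.99, 2.18 and 1.66 FPKM among *ATRX* KD tumors (log2 fold change -0.88, SE 0.13, adjusted p = 0.00968). All 4 Y-linked genes were separated between the groups, 3 of them fell, and the mean of the list was 2.62 to 3.04 in *ATRX* CT tumors and 1.90 to 2.37 in *ATRX* KD tumors on the scale of log2 (FPKM + 1). *Ddx3y*, the 1 that did not pass, had a log2 fold change of -0.50 (adjusted p = 0.0571). In Balb/c tumors, grown from the same 2 kinds of cells, *Uty*, *Eif2s3y*, and *Kdm5d* averaged at most 0.00287 FPKM in either group. The study's methods give K7M2 as a female line. Which cells made these transcripts in NSG tumors was not tested.

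The list that joins lipid efflux with membrane scrambling was lower. It was chosen with earlier results of these data known, so its share of decreases is not ranked against other lists. Of 16 genes, 7 fell and 1 rose, with a median log2 fold change of -0.43. The 7 were *Apoc4*, *Apoe*, *Plscr2*, *Abca1*, *Plscr1*, *Mylip*, and *Plscr4*. *Abca1*, the transporter that hands cholesterol to apolipoproteins, was at 39.6, 36.3, 87.9, 41.9 and 38.3 FPKM among *ATRX* CT and 22.7, 29.4, 15.1, 18.2 and 15.7 FPKM among *ATRX* KD tumors. The *ATRX* CT tumor of mouse 3 stood far above the others, and the groups did not overlap (log2 fold change -1.19, SE 0.25, adjusted p = 0.0231). *Scarb1*, the receptor that takes up cholesterol from high-density lipoprotein, was the 1 that rose (log2 fold change 0.47). Without mouse 28 or 29 the count of decreases was 4, and without mouse 30 it was 2.

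Lysosomal genes followed in small steps. Of 44 genes, 38 were below 0, 5 fell, and 1 rose, with a median of -0.15. *Ctsd*, cathepsin D, fell from 649 ± 78.1 to 479 ± 37.5 FPKM (log2 fold change -0.43, SE 0.12, adjusted p = 0.0493) and *Atp6v0d2*, a subunit of the vacuolar ATPase found in osteoclasts and macrophages, by 0.92 on the log2 scale. *Glb1*, lysosomal beta-galactosidase, rose by 0.50. Between 1 and 3 genes fell without mouse 1, 2, 4, 5, 27, 28, 29, or 30. The osteoclast list, which shares *Atp6v0d2*, *Trem2*, and *Tyrobp* with these groups, held 3 decreases of 17 genes and 1 increase, that of the matrix metalloproteinase *Mmp9* (log2 fold change 0.61).

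Other immune lists were mixed. The Fc receptor, chemokine, monocyte and neutrophil, and dendritic cell lists had medians below 0, by less than the macrophage list. The median was 0.14 for mast cell genes and -0.002 for complement and coagulation genes. Among immune lists not described further, it was 0.001 for MHC class I presentation and 0.07 for MHC class II presentation. It was -0.01 for T cell and -0.19 for B cell genes. Among Fc receptors and immune checkpoints, 3 of 24 fell (median -0.36): *Cd86*, a costimulatory ligand, from 16.1 ± 3.33 to 8.73 ± 3.24 FPKM, *Fcgr3*, an activating receptor for immunoglobulin G, from 241 ± 30.8 to 146 ± 55.3 FPKM, and *Cd274*, coding for PD-L1, from 21.8 ± 4.23 to 13.6 ± 2.11 FPKM. Among 31 chemokines, *Ccl6* and *Ccl27a* fell and *Cx3cl1*, the ligand of the fractalkine receptor, rose from 4.4 ± 1.14 to 8.55 ± 0.978 FPKM (log2 fold change 0.84, SE 0.15, adjusted p = 0.0148). *Irf8* fell among 25 dendritic cell genes, and of 29 monocyte and neutrophil genes *Mmp9* rose and 0 fell, with *Itgam* at -0.49 (adjusted p = 0.189) and *Plac8* at -0.41 (adjusted p = 0.473). The list medians were -0.18 and -0.27. *Klra8*, an NK cell receptor gene, fell among 6 NK genes tested (log2 fold change -0.94, SE 0.23, adjusted p = 0.0401), although NSG mice lack these cells, and *Ccl5* did not pass (log2 fold change 0.04, adjusted p = 0.94). *Klra8* averaged 17.6 FPKM in NSG *ATRX* CT tumors and at most 0.027 FPKM in either Balb/c group, and its source was not tested. Of 22 mast cell genes, *Gata2* rose (log2 fold change 0.52) and *Srgn* fell (-0.75). Both are known in other blood cells too, *Srgn* also in macrophages. Of 34 complement and coagulation genes, *F13a1* and *Masp2* fell, and 55.9% of the exons of *Masp2* overlap *Tardbp* on the opposite strand. *Mx1* fell among 36 interferon-stimulated genes, of which *Bst2* and *Ifi27*, the most abundant, had log2 fold changes of -0.17 and 0.07. The medians of the NK, complement, and interferon lists changed sign under at least 1 other setting. Of 9 genes of the common gamma chain receptors 0 passed, with *Il4ra* at -0.17 and *Jak1* at 0.10.

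**Figure D3:**
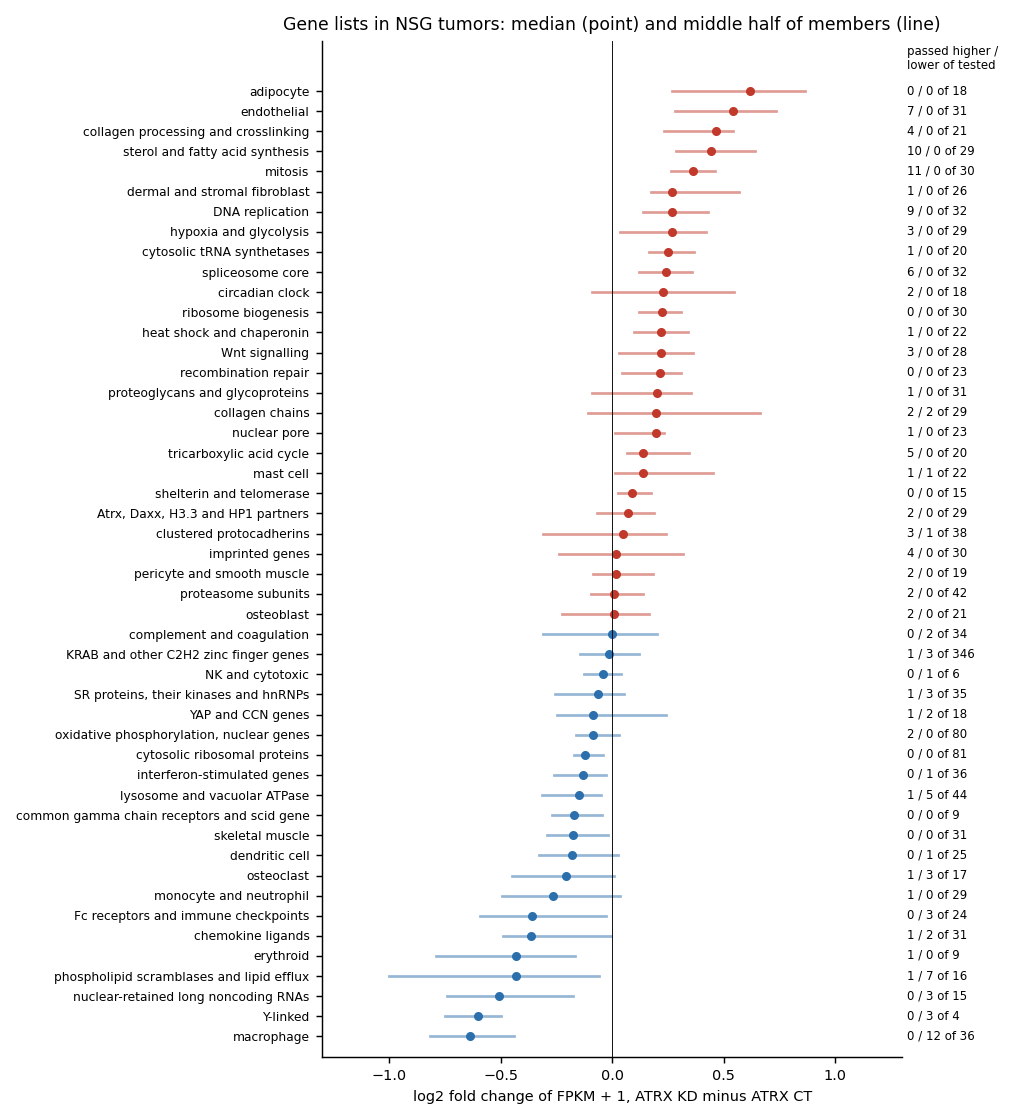
Log2 fold change of FPKM + 1 (horizontal) for the 48 gene lists described, with the median (point) and the middle range between the quartiles (line) of the tested members. The numbers at the right count the members that passed, higher and lower, of those tested. Macrophage, Y-linked, and long non-coding RNA lists lie lowest, and adipocyte, endothelial, collagen processing, and sterol lists highest, although 0 adipocyte genes passed.

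Nuclear RNAs and 3 kinases of splicing factors were lower. Among 15 nuclear-retained long non-coding RNAs, 12 were below 0 and 3 fell, with a median of -0.51. These were *Neat1* and the X-linked *Ftx* (log2 fold change -0.65, SE 0.17, adjusted p = 0.0492) and *Jpx* (log2 fold change -0.69, SE 0.17, adjusted p = 0.0368), which lie next to *Xist* and activate it. *Malat1* (log2 fold change -0.76, adjusted p = 0.0505) and *Xist* (-0.75, adjusted p = 0.101), named after their values were seen, did not pass. Without mouse 1, 4, 5, 28, 29, or 30 the count was 1, and without mouse 2 or 27 it was 7. *Clk1*, *Clk3*, and *Clk4* code for kinases that phosphorylate the SR splicing proteins. *Clk1* was at 61.4, 49.1, 63.5, 58.5 and 60.1 FPKM among *ATRX* CT and 39.8, 46.7, 42.4, 34.8 and 38.3 FPKM among *ATRX* KD tumors. It was lower in every *ATRX* KD tumor (log2 fold change -0.53, SE 0.10, adjusted p = 0.0164). *Clk4* (log2 fold change -0.42) and *Clk3* (-0.33) fell with separated groups as well. They belong to a list of 35 SR proteins, their kinases, and hnRNPs, of which 24 were below 0 and 11 above (median -0.06). Besides these 3 kinases only *Hnrnpa1* passed, and it rose (log2 fold change 0.36). Without mouse 30 the count of decreases in this list was 0. *Rsrp1*, coding for a protein rich in arginine and serine, was at 125, 86.4, 128, 92.2 and 102 FPKM among *ATRX* CT and 56.9, 63.3, 67.7, 54.3 and 45.5 FPKM among *ATRX* KD tumors (log2 fold change -0.87, SE 0.14, adjusted p = 0.011). The groups were separated by a wide gap. *Ogt*, the X-linked enzyme that adds O-GlcNAc to nuclear and cytosolic proteins, was at 49.8, 34.6, 46, 41.8 and 50.5 FPKM among *ATRX* CT and 23.9, 30.8, 22.8, 20.6 and 21.3 FPKM among *ATRX* KD tumors (log2 fold change -0.87, SE 0.13, adjusted p = 0.00968), and *Snhg20*, a host gene of small nucleolar RNAs, fell from 27.4 ± 3.33 to 16 ± 2.29 FPKM (log2 fold change -0.74, SE 0.12, adjusted p = 0.0106). The transcripts of *Clk1* and *Ogt* are known for introns that stay in nuclear RNA, and the values here, made per gene, do not separate spliced from unspliced RNA.

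The spliceosome core moved the other way. Of its 32 genes, 27 were above 0, 6 rose, and 0 fell, with a median of 0.24. *Crnkl1* (log2 fold change 0.54, SE 0.10, adjusted p = 0.015) and *Sf3a3* (log2 fold change 0.45, SE 0.08, adjusted p = 0.015) rose with separated groups, *Sf3a1* by 0.50 and *Prpf6* by 0.45 with overlap, and *Eftud2* and *Cdc5l* were the others. The count was 0 without mouse 30, 2 without mouse 1, 4, 5, 28, or 29, 4 without mouse 27, and 11 without mouse 3. Of 23 nuclear pore genes, *Nup107* rose from 13.5 ± 2.82 to 21.8 ± 2.3 FPKM (log2 fold change 0.67, SE 0.13, adjusted p = 0.0199), while *Ranbp1* (0.21, adjusted p = 0.298) and *Nup85* (0.16, adjusted p = 0.326), the most abundant, did not pass. *Lmnb1*, coding for lamin B1 of the nuclear lamina, was at 23.4, 23.3, 22.1, 24.2 and 25.4 FPKM among *ATRX* CT and 37, 36.5, 37.8, 35.4 and 37.7 FPKM among *ATRX* KD tumors. This was a small step that hardly varied within the groups (log2 fold change 0.62, SE 0.07, adjusted p = 0.00331).

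Sterol and fatty acid synthesis was higher throughout. All 29 genes were above 0, 10 rose, and 0 fell, with a median of 0.44. The transcription factor SREBP2 turns on most of these genes when cells are short of cholesterol. *Sqle*, the squalene epoxidase of sterol synthesis, was at 50.4, 38.9, 40, 48.2 and 40.8 FPKM among *ATRX* CT and 68.5, 78.1, 72.3, 82.4 and 83.4 FPKM among *ATRX* KD tumors. The lowest *ATRX* KD tumor was well above the highest control (log2 fold change 0.81, SE 0.10, adjusted p = 0.00478). *Hmgcs1*, *Cyp51*, and *Mvd* of the same pathway and *Srebf2*, the gene of SREBP2 itself, rose by 0.55 to 0.68 on the log2 scale. *Scd1*, the stearoyl-CoA desaturase, was at 37.2, 38.4, 44.5, 39.4 and 40.9 FPKM among *ATRX* CT and 49.1, 56.1, 153, 76.3 and 101 FPKM among *ATRX* KD tumors, with the tumor of mouse 28 far above the rest (log2 fold change 0.98, SE 0.26, adjusted p = 0.0441). The elongase *Elovl6* rose from 6.42 ± 1.9 to 13.1 ± 2.78 FPKM (log2 fold change 0.95, SE 0.21, adjusted p = 0.0261). Fat cells also make *Scd1* and *Elovl6*. The adipocyte list was high in the *ATRX* KD tumors of mice 28, 29, and 30 (mean log2 (FPKM + 1) of 3.44, 2.64, and 2.83) and not in those of mice 26 and 27 (1.65 and 1.49, against 1.53 to 2.16 in controls), and its part in the result was not tested. *Sqle* was high in all 5. Without mouse 4, 29, or 30 the count of 10 became 6, 5, or 3.

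Mitosis genes formed the other group with a small and even increase. Of 30 genes, 29 were above 0, 11 rose, and 0 fell, with a median of 0.36, and the list mean was 4.60 to 5.06 in *ATRX* CT tumors and 5.13 to 5.29 in *ATRX* KD tumors. *Plk1*, the polo kinase that drives mitotic entry and spindle assembly, was at 12.4, 15.8, 17, 15.3 and 18.6 FPKM among *ATRX* CT and 22.6, 21.8, 27.5, 25.1 and 31.3 FPKM among *ATRX* KD tumors. The groups were separated (log2 fold change 0.66, SE 0.13, adjusted p = 0.0164). *Bub1b*, of the spindle checkpoint, rose from 11.3 ± 2.25 to 18.7 ± 1.98 FPKM (log2 fold change 0.70, SE 0.13, adjusted p = 0.015) and *Tpx2*, which activates Aurora A on the spindle, from 25.8 ± 4.73 to 37.0 ± 2.37 FPKM (log2 fold change 0.52, SE 0.11, adjusted p = 0.0266). *Kif20a*, a kinesin of cytokinesis, was at 30.7, 26.9, 30.2, 31.6 and 33.3 FPKM among *ATRX* CT and 47.7, 47, 51.4, 47.4 and 55.9 FPKM among *ATRX* KD tumors. Every *ATRX* KD tumor exceeded every control (log2 fold change 0.69, SE 0.08, adjusted p = 0.00478), and 28.6% of its exons overlap *Cdc23* on the opposite strand. *Aurkb*, *Bub1*, *Ccna2*, *Kif23*, *Kif2c*, *Prc1*, and *Nek2* were the other members that rose. Without mouse 1, 4, 28, 29, or 30 the count was 5, 5, 3, 5, and 2.

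Promoters of mitosis genes are known to share the cell cycle homology region, the element through which the DREAM complex represses them outside division. The letters TTTGAA were searched on both strands of the RefSeq promoters (GRCm38.p6, 250 bases before to 50 after the start), which matched 10694 of the 14654 genes. They were found in 18 of the 24 mitosis promoters matched (75%) and in 1298 of all 10694 (12.1%). Of the 11 mitosis genes that rose, 6 had a matched promoter, and 4 of these hold the letters. A match describes the letters only. Other motifs were searched for the sterol, DNA replication, and macrophage lists. Fewer than 80% of their members had a promoter, against 24 of 30 for mitosis, so no share is given. The 4 windows of genes that rose and hold these letters are given here, with the match in capitals, for chr2:118597961-118598260 (plus strand, *Bub1b*), chr9:61946750-61947049 (minus strand, *Kif23*), chr7:122159185-122159484 (plus strand, *Plk1*), and chr7:80294201-80294500 (plus strand, *Prc1*).
Bub1b: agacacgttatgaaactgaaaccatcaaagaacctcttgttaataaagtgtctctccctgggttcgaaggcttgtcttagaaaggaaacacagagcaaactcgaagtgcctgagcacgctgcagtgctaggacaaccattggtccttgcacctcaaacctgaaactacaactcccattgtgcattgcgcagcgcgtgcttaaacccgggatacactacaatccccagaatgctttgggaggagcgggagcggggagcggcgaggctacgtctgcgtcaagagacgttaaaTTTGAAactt
Kif23: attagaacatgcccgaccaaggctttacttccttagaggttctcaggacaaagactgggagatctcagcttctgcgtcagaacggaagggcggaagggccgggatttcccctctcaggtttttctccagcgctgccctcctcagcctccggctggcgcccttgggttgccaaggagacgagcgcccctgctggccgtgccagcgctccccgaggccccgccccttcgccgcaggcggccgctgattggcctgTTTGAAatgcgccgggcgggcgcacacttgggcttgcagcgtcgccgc
Plk1: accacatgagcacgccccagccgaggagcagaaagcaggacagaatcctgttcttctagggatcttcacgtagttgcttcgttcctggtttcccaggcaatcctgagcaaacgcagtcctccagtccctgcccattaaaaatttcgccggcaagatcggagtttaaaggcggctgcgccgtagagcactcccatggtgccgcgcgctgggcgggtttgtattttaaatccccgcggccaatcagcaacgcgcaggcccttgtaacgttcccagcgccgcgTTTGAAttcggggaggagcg
Prc1: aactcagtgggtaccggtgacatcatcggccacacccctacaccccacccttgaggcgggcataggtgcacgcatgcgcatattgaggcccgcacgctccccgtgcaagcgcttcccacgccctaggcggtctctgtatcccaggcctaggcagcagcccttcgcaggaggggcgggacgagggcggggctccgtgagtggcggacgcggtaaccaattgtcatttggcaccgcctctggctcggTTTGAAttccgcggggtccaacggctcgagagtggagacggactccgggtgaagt

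Replication genes were higher too. Of 32 genes, 29 were above 0, 9 rose, and 0 fell, with a median of 0.27. These were *Mcm3*, *Mcm4*, *Mcm5*, *Mcm6*, and *Mcm7* of the replicative helicase, *Mcm10* and *Cdc6*, needed to load and start it, *Rrm1* of ribonucleotide reductase, and the flap endonuclease *Fen1*. *Mcm4* was at 41.2, 38.8, 56.3, 37.7 and 49.4 FPKM among *ATRX* CT and 63.8, 85, 70.4, 68.9 and 78.8 FPKM among *ATRX* KD tumors. The groups were separated, and the tumors of mice 27 and 3 were the highest of each (log2 fold change 0.71, SE 0.12, adjusted p = 0.0145). *Fen1* rose from 33.4 ± 3.14 to 48.9 ± 4.67 FPKM (log2 fold change 0.54, SE 0.10, adjusted p = 0.0148) and *Mcm6* from 64.0 ± 8.86 to 89.5 ± 5.37 FPKM (log2 fold change 0.49, SE 0.10, adjusted p = 0.0219). The count was 3 to 4 without mouse 1, 4, 28, 29, or 30, 6 without mouse 5, and 15 without mouse 3. Of 23 recombination repair genes 0 passed, the most abundant being *Rbbp8* (0.24, adjusted p = 0.101) and *Nbn* (0.25, adjusted p = 0.082). *Uhrf1*, which keeps DNA methylation through replication (log2 fold change 0.65, SE 0.16, adjusted p = 0.0368), and *Cbx3*, coding for HP1 gamma (log2 fold change 0.37, SE 0.07, adjusted p = 0.0207), were the 2 of 29 *ATRX*, DAXX, H3.3, and HP1 partner genes that rose. *Daxx* itself had a log2 fold change of 0.15 (adjusted p = 0.444). Of 15 shelterin and telomerase genes 0 passed, and *Obfc1*, a subunit of the telomere complex CST, came nearest (0.31, adjusted p = 0.0586).

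**Figure D4:**
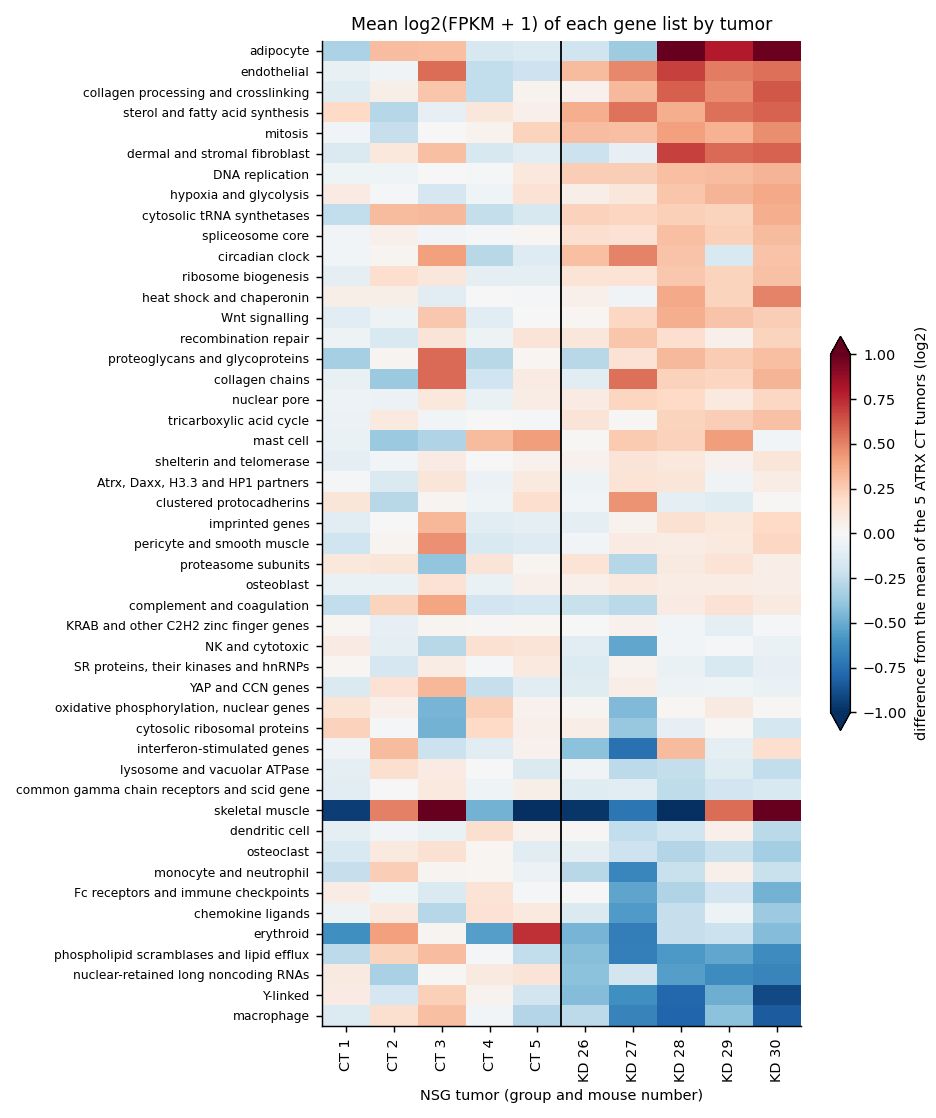
Mean log2 (FPKM + 1) of each gene list described (rows) in each NSG tumor (columns, control then knock-down), as the difference from the mean of the 5 *ATRX* CT tumors. Red is higher and blue lower. The mitosis, DNA replication, and sterol rows are red in all 5 *ATRX* KD tumors, the macrophage row is blue in all 5 and palest in mouse 26, and the skeletal muscle and adipocyte rows differ strongly between tumors of the same group.

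Mitochondrial and metabolic functions changed in part. Of 20 genes of the tricarboxylic acid cycle and its links, 5 rose and 0 fell (median 0.14). *Suclg2*, a subunit of succinyl-CoA ligase, was at 26.3, 26.2, 25.9, 27 and 27.1 FPKM among *ATRX* CT and 35.1, 39.1, 39.3, 41 and 44.5 FPKM among *ATRX* KD tumors. The controls hardly varied, and all *ATRX* KD tumors were above them (log2 fold change 0.57, SE 0.08, adjusted p = 0.00647). *Me2*, the mitochondrial malic enzyme, rose by 0.53, *Cs*, citrate synthase, by 0.51, and *Idh2* by 0.35 on the log2 scale. Without mouse 30 the count was 2. The nuclear genes of oxidative phosphorylation were mixed: *Atp5a1* (log2 fold change 0.42) and *Ndufs1* (0.38) rose, but the median of the 80 genes was -0.09, and it changed sign without mouse 4 or mouse 27. Of 29 hypoxia and glycolysis genes, *Car9* rose from 41.0 ± 12.1 to 74.4 ± 16.5 FPKM, *Pfkp* by 0.62, and *Slc2a1*, the glucose transporter GLUT1, by 0.43, all with overlap (median 0.27). *Egln1*, the oxygen sensor that marks HIF for degradation, was at 41.2, 45, 46, 43.9 and 47.4 FPKM among *ATRX* CT and 61.8, 73.5, 68.3, 63 and 70.7 FPKM among *ATRX* KD tumors. It was higher in every *ATRX* KD tumor (log2 fold change 0.58, SE 0.08, adjusted p = 0.00575). *Prkar2b*, a regulatory subunit of protein kinase A, rose from 72.2 ± 5.96 to 112 ± 6.82 FPKM (log2 fold change 0.63, SE 0.09, adjusted p = 0.00575).

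Protein synthesis genes showed small shifts, and few of them passed. All 20 cytosolic tRNA synthetases were above 0 (median 0.25), of which *Hars* rose (log2 fold change 0.39, SE 0.09, adjusted p = 0.028), and *Nars* and *Gars*, the most abundant, did not pass (0.37 and 0.10). Of 30 ribosome biogenesis genes 29 were above 0 (median 0.22) and 0 passed, with *Npm1* at 0.10 and *Nhp2* at 0.02. The 81 cytosolic ribosomal protein genes leaned the other way (67 below 0, median -0.12, 0 passed), with *Rps27* at -0.16 and *Rpl41* at -0.16. *Cct2*, of the chaperonin that folds actin and tubulin, rose by 0.43 among 22 heat shock and chaperonin genes, of which *Hsp90ab1* (0.31, adjusted p = 0.0873) and *Hspa8* (-0.11, adjusted p = 0.604) were the most abundant. *Psmd2* and *Psmd3* rose by 0.41 and 0.39 among 42 proteasome genes, whose median of 0.01 changed sign under other settings.

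Enzymes that process collagen were higher. Of 21 processing and crosslinking genes, 20 were above 0, 4 rose, and 0 fell (median 0.47). *Fkbp10*, a chaperone of procollagen in the endoplasmic reticulum, was at 25.9, 30.8, 39.5, 21.9 and 27.2 FPKM among *ATRX* CT and 41.3, 52.3, 57.8, 52 and 61.4 FPKM among *ATRX* KD tumors. The groups were separated by a small gap between mice 3 and 26 (log2 fold change 0.86, SE 0.15, adjusted p = 0.0148). *Pcolce*, which enhances cleavage of the procollagen end, was at 103, 142, 142, 94.8 and 131 FPKM among *ATRX* CT and 178, 198, 219, 219 and 230 FPKM among *ATRX* KD tumors, with all *ATRX* KD tumors above the controls (log2 fold change 0.78, SE 0.13, adjusted p = 0.0137). The lysyl hydroxylase *Plod1* (log2 fold change 0.72, SE 0.15, adjusted p = 0.0248) and the prolyl hydroxylase subunit *P4ha2* (log2 fold change 0.71, SE 0.17, adjusted p = 0.032) rose with overlap. The count was 2 without mouse 1, 4, 28, or 29, 1 without mouse 30, 8 without mouse 3, and 9 without mouse 26. Of 29 collagen chains, *Col18a1* (log2 fold change 0.95) and *Col8a1* (0.61) rose and *Col6a6* (-1.01) and *Col20a1* (-0.74) fell, while *Col1a1* (0.66, adjusted p = 0.101) and *Col1a2* (0.63, adjusted p = 0.0784), looked up after the list, did not pass. *Ogn*, a small proteoglycan of bone, rose from 30.5 ± 10.7 to 65.8 ± 22.6 FPKM (log2 fold change 1.09, SE 0.29, adjusted p = 0.0499) among 31 proteoglycan and glycoprotein genes, of which *Spp1*, osteopontin (-0.07, adjusted p = 0.871), and *Ecm1* (0.28, adjusted p = 0.277) did not pass. Of 21 osteoblast genes, *Tnfrsf11b* and *Wnt10b* rose and the list median was 0.01. Among 18 genes of the YAP and CCN group, *Nov* rose and *Wisp2* and *Lats2*, a kinase that restrains YAP, fell (log2 fold change -0.63, SE 0.17, adjusted p = 0.045). Both list medians changed sign under other settings.

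Vessel genes were higher in *ATRX* KD tumors. Of 31 endothelial genes, 29 were above 0, 7 rose, and 0 fell (median 0.54). *Plvap* was at 4.49, 7.07, 10.8, 5.11 and 4.59 FPKM among *ATRX* CT and 12.2, 15.3, 17.3, 15.3 and 14.4 FPKM among *ATRX* KD tumors, with the *ATRX* CT tumor of mouse 3 nearest to the other group (log2 fold change 1.16, SE 0.20, adjusted p = 0.0137). *Pecam1*, the adhesion molecule of endothelial junctions, was at 7.93, 7.47, 14.3, 5.27 and 6.49 FPKM among *ATRX* CT and 12.5, 15, 19.3, 16.6 and 16.7 FPKM among *ATRX* KD tumors. Here the tumor of mouse 3 lay among the *ATRX* KD tumors (log2 fold change 0.93, SE 0.21, adjusted p = 0.028). *Esm1*, of sprouting tip cells, rose from 2.26 ± 1.23 to 6.04 ± 2.21 FPKM (log2 fold change 1.13, SE 0.25, adjusted p = 0.0279) and *Tie1*, an endothelial receptor kinase, by 0.82, and *Cldn5*, *Apln*, and *Podxl* rose by 0.67 to 0.80. The list mean was 2.00 to 2.81 in *ATRX* CT tumors, the highest in mouse 3, and 2.56 to 2.93 in *ATRX* KD tumors. Without mouse 3 the count was 24, without mice 3 and 27 it was 24, and without mouse 26 it was 12. It was 3 without mouse 1 or 5 and 1 without mouse 4, 28, 29, or 30. Of 19 pericyte and smooth muscle genes, *Mcam* (log2 fold change 1.06) and *Ndufa4l2* (0.80) rose. *Mcam* is also found on endothelial and tumor cells. *Pcolce* was the 1 of 26 fibroblast genes that passed, and *Gsn*, the most abundant, was at 0.31 (adjusted p = 0.289).

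Small changes that were even across tumors were also found outside these lists. *2010111I01Rik*, an entry for an aminopeptidase (*Aopep*), was at 41, 42.1, 39.1, 42.3 and 46.2 FPKM among *ATRX* CT and 24.8, 21, 27.5, 27.9 and 21.9 FPKM among *ATRX* KD tumors (log2 fold change -0.76, SE 0.10, adjusted p = 0.00541). *Taz* (chrX:74282718-74290151, plus strand), here the X-linked gene of tafazzin, which remodels cardiolipin, was at 20.8, 20.8, 21, 24.6 and 24.4 FPKM among *ATRX* CT and 15.2, 13.2, 11.8, 13.2 and 12.2 FPKM among *ATRX* KD tumors (log2 fold change -0.73, SE 0.09, adjusted p = 0.00541). *Ssh3*, a phosphatase of the slingshot family that acts on cofilin, fell from 14.2 ± 1.09 to 8.88 ± 0.764 FPKM (log2 fold change -0.62, SE 0.09, adjusted p = 0.00874). In all 3 the groups were apart in every tumor, while the change was under 2-fold.

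*Atrx*, *Ogt*, *Taz*, *Ftx*, *Jpx*, and *F630028O10Rik* are all X-linked, and X-linked genes were lower, mainly those beyond 50 Mb. This pattern was noticed in the data and is described without a test. Over the 12049 genes that averaged 1 FPKM or more, 522 passed higher (4.33%) and 370 lower (3.07%). On X the median log2 fold change of 360 genes was -0.22, with 72.5% below 0, 6 higher, and 40 lower. Relative to the mean of the *ATRX* CT tumors, the median over these genes was -0.14, -0.25, -0.22, -0.16, and -0.19 in *ATRX* KD tumors and -0.02 to 0.02 in *ATRX* CT tumors. All *ATRX* KD tumors were thus lower by a similar step, that of mouse 27 included. Beyond 50 Mb of X the median of 263 genes was -0.26 (1 higher and 37 lower), and in the first 50 Mb that of 97 genes was -0.05 (5 higher and 3 lower). Within 10 Mb of *Atrx* the median of 60 genes was -0.27. Of the X-linked genes, 15 had a lower log2 fold change than *Atrx*. The median of chromosome 18 was 0.15 (36 higher and 3 lower of 307 genes) and that of chromosome 15 was 0.12 (55 higher and 12 lower of 494), and chromosome 14 was at -0.11 (5 higher and 18 lower of 402), while the other autosomes lay between -0.05 and 0.05. Several genes named above lie there, *Lmnb1*, *Kif20a*, *Me2*, *Atp5a1*, *Hars*, and *Apcdd1* on chromosome 18 and *Sqle*, *Nov*, and *Tnfrsf11b* on chromosome 15. On the stretch of X beyond 50 Mb, the medians of the Balb/c *ATRX* KD tumors were -0.06 to -0.01, against -0.31 to -0.19 in NSG *ATRX* KD tumors. On chromosome 15 they were 0.11, 0.203, 0.108, and -0.009 in Balb/c, against 0.117 to 0.149 in NSG tumors. On chromosome 18 they were -0.141 to 0.02 in Balb/c, against 0.064 to 0.257 in NSG tumors.

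**Figure D5:**
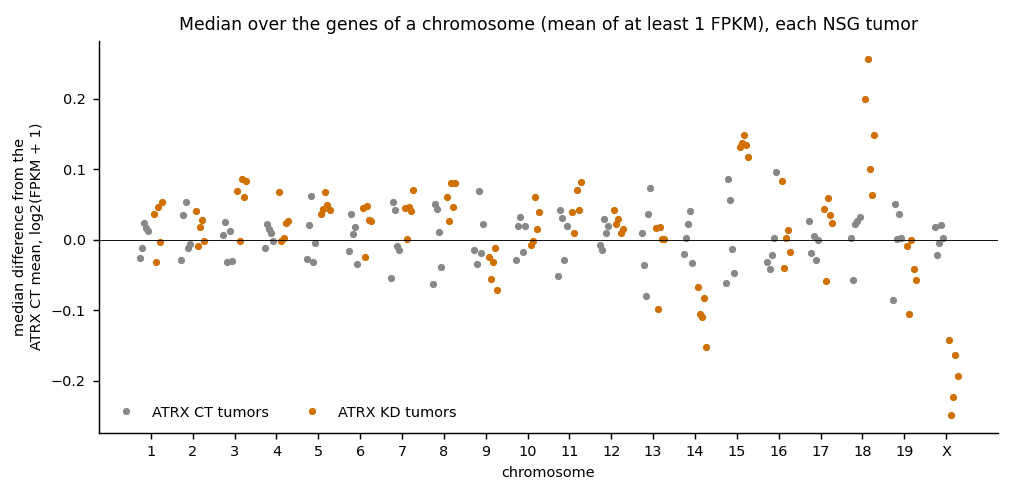
Median over the genes of a chromosome (mean of at least 1 FPKM) of the difference from the *ATRX* CT mean in log2 (FPKM + 1) (vertical), for each NSG tumor, by chromosome (horizontal). Grey points are the 5 *ATRX* CT and orange points the 5 *ATRX* KD tumors. On X all 5 *ATRX* KD tumors lie between -0.25 and -0.14, below all controls, and on chromosomes 15 and 18 they lie above.

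Imprinted genes and clustered zinc finger genes, at which ATRX is known to bind, had list medians near 0, and few zinc finger genes passed. Of 30 imprinted genes, 4 rose and 0 fell (median 0.02): *Mest*, *Slc38a4*, and the neighbors *Sgce* and *Peg10* on chromosome 6. *Peg10*, derived from a retrotransposon, was at 0.444, 0.494, 0.667, 0.466 and 0.714 FPKM among *ATRX* CT and 1.54, 1.33, 2.15, 1.06 and 1.13 FPKM among *ATRX* KD tumors. All *ATRX* KD tumors were above the controls, at low levels (log2 fold change 0.63, SE 0.12, adjusted p = 0.015). *Mest* rose by 0.95 on the log2 scale, and 32.9% of its exons overlap *Copg2* on the opposite strand. Of 38 clustered protocadherins, all on chromosome 18, *Pcdhb15* (log2 fold change 1.03, SE 0.24, adjusted p = 0.0309), *Pcdhb5* (log2 fold change 0.66, SE 0.11, adjusted p = 0.0137), and *Pcdhgc3* (0.54) rose and *Pcdhga12* fell (-0.41), and the last 2 share exons with other genes of the cluster. Of 346 zinc finger genes of the KRAB and other C2H2 classes, *Zfp41* rose (0.44) and *Zfp182*, *Zfp280d*, and *Zfp653* fell (-0.42, -0.51, and -0.46), with a median of -0.02. These shares, 0.289% higher and 0.867% lower, were under the 3.73% and 3.05% over all genes.

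The same cells in Balb/c mice allowed the effect to be set beside that in NSG mice. In the Balb/c fit, 0 genes were higher and 1 lower of 14701 (253 and 356 at an unadjusted p under 0.05). The paper used another test (DESeq) on Balb/c tumors and did report genes in both directions, with mast cell genes among the lower ones. The small count here is that of limma on FPKM. The difference between the hosts, tested as the interaction in limma, passed for 0 of 14803 genes (0.0%), with 868 and 659 genes at an unadjusted p under 0.05 in either direction and a smallest adjusted p of 0.154. The log2 fold changes in Balb/c tumors were near those in NSG tumors for *Wisp2* (-1.40 against -1.25), *Murc* (1.44 against 1.23), *Tnfrsf11b* (1.10 against 1.21), and *Klhl40* (1.05 against 1.25). They were smaller for *Neat1* (-0.32 against -1.90), *Apoe* (-0.39 against -1.48), and *Plk1* (-0.06 against 0.66), but these differences did not pass (adjusted p = 0.341, 0.392, and 0.291). *Apoc4* averaged only 0.136 FPKM in Balb/c *ATRX* CT tumors, against 6.09 FPKM in NSG *ATRX* CT tumors, so it had little room to fall there. Its log2 fold changes were 0.04 and -2.08, and the difference between hosts did not pass (adjusted p = 0.154). The difference of the list means between groups was -0.09 in Balb/c and -0.59 in NSG tumors for macrophage genes, and 0.04 and 0.37 for mitosis genes, on the scale of log2 (FPKM + 1). Other lists behaved differently. For mast cell genes it was -0.86 in Balb/c and 0.18 in NSG tumors. It was alike in both hosts for endothelial genes (0.37 and 0.51) and adipocyte genes (0.50 and 0.56). These list differences were not tested.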

How the data were processed

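RNA of 10 K7M2 tumors from NSG mice (5 *ATRX* CT and 5 *ATRX* KD) was analysed, with 8 tumors from Balb/c mice for the comparison of hosts. The authors aligned 75 bp paired reads of ribosome-depleted, stranded libraries to mm10 with STAR (2.6.0c), removed reads of quality under 20 and duplicates, and quantified RefSeq genes with Cufflinks (2.2.1). The deposited matrix holds log2 (FPKM + 1) values of 20878 genes and 92 spike-ins, the latter left out, and no normalization between libraries is named. Coordinates are 1-based, in mm10, from the deposited annotation.

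FPKM are no counts, so limma 3.58.1 (R 4.3.3, lmFit and eBayes with trend) was run on log2 (FPKM + 1), as deposited, for genes that averaged 0.1 FPKM or more over the tumors fitted, with Benjamini-Hochberg adjustment over all genes tested. A gene passed at an adjusted p under 0.05. *Atrx* was also compared by an exact permutation test over 252 arrangements, and the hosts by the interaction in a fit of all 18 tumors. Depth was estimated from the steps between low values of genes, of which 37.1% to 43.0% lay within 0.1 of a whole fragment where chance gives 20%, so whole reads were not recovered. That depth limits genes of low level, and covers counting error only. The steps were tested on simulated data.

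The members and the gene lists were chosen with earlier results of these data known, and the 48 lists described were picked from 78 after their values were seen. Genes named are *Atrx*, the 10 higher and 10 lower genes of at least 2-fold with the largest changes and no overlap, the 6 higher and 6 lower with the smallest adjusted p under 2-fold at 10 FPKM or more, per list up to 4 that passed with the largest changes (or the 2 most abundant where fewer than 2 passed), and markers of the cells and hosts. Other names were chosen after their values were seen: *A230057D06Rik*, the remaining members that passed in a list, and those marked in the text. Some genes that the rule names are not reported here.

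Alternatives were a pseudocount of 0.1, median-ratio scaling, quantile normalization, removal of the trend with transcript length, a minimum of 1 FPKM or none, 1 fit over all 18 tumors, library weights with a robust prior, and leaving out each tumor. Leaving out the tumors of mice 3 and 27 together, and the chromosome medians, were added after seeing the data. Labels name separate mice, and nothing further is known of shared handling. Python 3.11.15 with numpy 2.4.6, pandas 2.3.3, and matplotlib 3.10.9 read the files, searched the promoters, and drew the figures.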

Additional observations from a re-analysis of the deposited data

Results flagged for a closer look

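A tumor was singled out where its gap to the nearest of the other 4 tumors of its group exceeded 0.71 of the group's range (Dixon's 95% value). This held for 15 of 162 groups of values (genes and list means), where chance gives about 1 in 20 (8.1 of 162). All values are on the scale of log2 (FPKM + 1). The tumor labelled *ATRX* KD of mouse 27 was high for *Atrx* (4.12, the others 3.24 to 3.3) and for the clustered protocadherins (1.53, the others 0.96 to 1.09). It was low for the proteasome (6.57, the others 6.92 to 6.99), oxidative phosphorylation (6.55, the others 7.0 to 7.08), and NK genes (1.61, the others 2.03 to 2.11). The *ATRX* CT tumor of mouse 3 was low for the proteasome (6.46, the others 6.88 to 6.99) and oxidative phosphorylation (6.53, the others 7.04 to 7.23). It was high for endothelial (2.81, the others 2.00 to 2.21), Wnt (1.79, the others 1.40 to 1.51), and imprinted genes (2.48, the others 2.03 to 2.14). The *ATRX* CT tumor of mouse 2 was low for the nuclear-retained long non-coding RNAs (4.44, the others 4.78 to 4.89) and the zinc finger genes (2.49, the others 2.58 to 2.6). The *ATRX* CT tumor of mouse 5 was high for DNA replication (4.98, the others 4.83 to 4.87), the *ATRX* KD tumor of mouse 30 for tRNA synthetases (6.40, the others 6.25 to 6.27), and the *ATRX* KD tumor of mouse 26 was low for *Igfbp3* (5.67, the others 6.14 to 6.3). The cause was not tested in any of these.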

How the results depend on the processing

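No paired analysis was possible because the groups share no mouse numbers. All 547 higher genes kept a log2 fold change above 0 in each setting that tested them, and the 447 lower genes stayed below 0 except for 1 without mouse 5. These genes were picked in the same tumors that the settings reuse, so keeping their sign is no separate check. The number that passed depended on the setting. It was 957 higher and 831 lower with the length trend removed, 2950 and 2464 with library weights and a robust prior, and 1121 and 733 without mice 3 and 27. With 1 tumor left out it was 90 to 1279 higher and 54 to 801 lower. Changes of at least 2-fold numbered 63 higher and 163 lower with a pseudocount of 0.1, 79 and 122 with library weights, and 15 to 42 and 12 to 86 with 1 tumor left out. *Atrx* passed with the length trend removed (log2 fold change -0.65, adjusted p = 0.0105), with library weights (-0.84, adjusted p = 0.000976), and without mice 3 and 27 (-0.78). Its log2 fold change ranged from -0.91 to -0.61 with 1 tumor left out. Its adjusted p reached 0.129 in the settings with all tumors and 0.153 with tumors left out. Of the list medians, these moved: mast cell (0.45 with a pseudocount of 0.1 and 0.43 with a minimum of 1 FPKM), common gamma chain receptors (-0.091 with no filter), long non-coding RNAs (-0.30 with the length trend removed and -0.20 with no filter), Wnt (0.032 with no filter), collagen chains (0.61 with a minimum of 1 FPKM and 0.58 without mice 3 and 27), and, with library weights, spliceosome (0.31), collagen processing (0.70), YAP and CCN (0.15), and imprinted genes (0.18). Shelterin ranged from 0.077 to 0.17 with 1 tumor left out. Named genes that did not pass changed sign: with library weights *Nhp2* (-0.05), *Acta1* (1.44), and *Mylpf* (1.02), without mice 3 and 27 *Nhp2* (-0.029), *Acta1* (0.88), and *Mylpf* (0.64), and with 1 or both of these tumors left out *Bst2* (-0.34 to 0.028), *Ccl5* (-0.073 to 0.23), *Ifi27* (-0.038 to 0.19), *Nhp2* (-0.11 to 0.11), *Spp1* (-0.20 to 0.027), *Acta1* (-1.03 to 0.88), and *Mylpf* (-1.15 to 0.64, 0.325 without mouse 28). The cause was not tested. Genes of low level rest on few fragments, which limits what their fold changes can show.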

Other observations

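Host tissue around the graft varied widely by tumor. The skeletal muscle list had a mean log2 (FPKM + 1) of 0.46 to 3.36 in *ATRX* CT and 0.27 to 3.04 in *ATRX* KD tumors, with 0 of 31 genes that passed. *Mylpf*, a myosin light chain of fast fibers, was at 2.27 to 54.4 FPKM in *ATRX* CT and 0.58 to 92.7 FPKM in *ATRX* KD tumors. None of 18 adipocyte genes passed, among them *Fabp4*, the fatty acid binding protein of fat cells (65.1 ± 5.88 and 107 ± 56.9 FPKM), and *Car3* (13.8 ± 19.7 and 29.9 ± 28.0 FPKM). Hemoglobin was lower without passing, with *Hbb-bs* at 428 ± 228 and 228 ± 60.8 FPKM (adjusted p = 0.17) and *Hba-a1* at a log2 fold change of -0.79 (adjusted p = 0.214). *Tfrc*, the transferrin receptor, which dividing cells also carry, was the 1 of 9 erythroid genes that passed. It rose from 37.7 ± 2.13 to 63.4 ± 9.1 FPKM (log2 fold change 0.73, adjusted p = 0.00828), and every *ATRX* KD tumor exceeded every control.

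Among 28 Wnt genes, *Apcdd1*, *Wnt10b* (0.474 ± 0.335 to 1.26 ± 0.356 FPKM), and *Wnt10a* (0.811 ± 0.266 to 1.5 ± 0.303 FPKM) rose, the ligands at low levels. Of 18 clock genes, the output factor *Hlf* rose from 4.49 ± 1.6 to 9.37 ± 2.44 FPKM and *Nr1d1*, the repressor REV-ERB alpha, from 6.01 ± 1.92 to 11.5 ± 1.99 FPKM, both with overlap. The hour at which tumors were taken is not in the labels. The 29 lists not described had medians of -0.19 to 0.30, and 19 of their 825 members rose and 4 fell.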
